A study of Homo sapiens with 5 samples.

Results

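The genes described are the 77 cytosolic ribosomal protein genes, 31 of the small (40S) subunit and 46 of the large (60S) subunit, among 15187 genes listed in both deposited expression tables. They were taken by symbol, as RPS or RPL followed by a number and at most an A or X, together with RPSA, RPLP0, RPLP1 and RPLP2. All 77 passed the filter on low counts. The libraries came from SAS, an established cell line from a human squamous carcinoma of the tongue, and mRNA selected with oligo(dT) was read by RNA-seq. The knockdown group, shCCT2, held 3 libraries of SAS cells with short hairpin RNA against CCT2, a subunit gene of the cytosolic chaperonin CCT. The control group, shCtrl, held 2 libraries of SAS cells with a control hairpin. The labels name no other treatment or allele, and do not say how many hairpin sequences were used, whether cells were a pool or a clone, or whether libraries of a group came from separate cultures. The p-values therefore reflect how far these libraries spread, and that spread may be technical. The table called set 1 here held shCCT2 1, shCCT2 2 and shCtrl 1, and the table called set 2 held shCCT2 3 and shCtrl 2. Comparisons were made within a set, and every log2 change is knockdown minus control.

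Ribosomal proteins are made in near-equal numbers, since each ribosome carries about a single copy of most of them, and copies that find no place in a subunit are degraded. Their mRNAs start with a run of pyrimidines, the 5′ terminal oligopyrimidine (TOP) tract, through which the kinase mTOR and the RNA-binding protein LARP1 set their translation and stability together. The small subunit decodes the mRNA, the large subunit joins the amino acids, and an acidic stalk of RPLP0, RPLP1 and RPLP2 on the large subunit recruits the translation GTPases. In growing tumour cells these transcripts are among the most abundant mRNAs.

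The starts of 8 members whose values are given below are printed to show that shared feature, which some annotated starts lack. RefSeq's promoter table for GRCh38.p14 held an entry for 62 of the 77 members. Each line runs 5′ to 3′ with 30 bases before the annotated start and 20 from it, and the capitals mark the unbroken run of C and T from the first transcribed base, or that base alone where it is not part of a run.
RPLP2, chr11:809937-809986, plus strand: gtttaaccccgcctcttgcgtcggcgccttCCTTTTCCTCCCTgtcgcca
RPL28, chr19:55385902-55385951, plus strand: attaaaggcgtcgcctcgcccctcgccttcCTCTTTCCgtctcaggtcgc
RPL13A, chr19:49487578-49487627, plus strand: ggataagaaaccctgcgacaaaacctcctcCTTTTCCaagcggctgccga
RPL35, chr9:124861938-124861987, minus strand: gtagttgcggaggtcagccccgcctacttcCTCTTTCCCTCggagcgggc
RPS16, chr19:39435930-39435979, minus strand: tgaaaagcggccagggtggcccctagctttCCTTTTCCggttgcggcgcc
RPS29, chr14:49598691-49598740, minus strand: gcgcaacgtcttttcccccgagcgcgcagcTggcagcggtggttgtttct
RPS13, chr11:17077648-17077697, minus strand: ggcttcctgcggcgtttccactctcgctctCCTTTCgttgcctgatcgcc
RPS26, chr12:56041888-56041937, plus strand: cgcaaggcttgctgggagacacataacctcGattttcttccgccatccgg
A TOP start was counted where the first transcribed base was C and at least 4 more C or T followed it. RPLP2, RPL28, RPL13A, RPL35, RPS16 and RPS13 have one at the annotated start, and RPS29 and RPS26 do not. Of the 62 members with an entry, 46 had a TOP start (74.2%), against 745 of 10566 other tested genes (7.05%) and 5.14% of all 27305 genes in the table. The letters CGGAAG, read on both strands within the 250 bases before and 50 bases after the start, occurred in 40 members (64.5%), against 38.1% of the other tested genes. AANATGGC, searched in the same way, occurred in 10 members (16.1%), against 12.3%. The median fitted log2 change was -0.14 over the 46 with one, -0.16 over the 16 without one and -0.11 over the 15 with no entry.

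The library totals were 17555763 to 18156592 counts in shCCT2 cells and 16913585 and 17976483 in shCtrl cells. CCT2 itself stood at 276.8, 259.9 and 269.0 CPM (counts scaled to the library total) in the 3 knockdown libraries, against 607.7 and 716.3 CPM in the controls. Its fitted log2 change was -1.22 ± 0.18 (SE), with an edgeR quasi-likelihood adjusted p of 0.542 and a DESeq2 adjusted p of 3.81e-05 (Benjamini-Hochberg both). The set 2 libraries stood apart from those of set 1. Among 9665 genes averaging 10 CPM or more, 475 (4.91%) differed more than 4-fold between the controls and 271 (2.80%) between shCCT2 3 and its control, but 23 and 3 between shCCT2 1 or shCCT2 2 and their control. The labels do not say whether both sets came from the same stock of the line, and what part such a difference has in values compared across sets was not tested. Between the controls, 5 of 77 members (6.5%) were more than 1 log2 unit apart. The members differed less than genes at large, with an SD of 0.52 against 1.22 over all genes tested. All 10 epithelial markers were above 1 CPM in every library, summing to 6542 to 12368 CPM in shCCT2 and 3241 and 12277 CPM in shCtrl cells. Fibroblast markers (2 of 5 listed in both tables) summed to 1.71 to 4.91 CPM in shCCT2 and 2.84 and 13.2 CPM in shCtrl, endothelial markers (4 of 5) to 1.36 to 3.30 against 4.23 and 8.34 CPM, and leukocyte markers (4 of 5) to 45.5 to 114.8 against 68.7 and 114.0 CPM.

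Summed over all members, ribosomal protein mRNA took a smaller share of the deposited counts in every knockdown library than in either control, while after TMM scaling (edgeR's correction of library totals) each was below its own control, but shCCT2 1 and 2 were not below shCtrl 2. The 77 genes held 7.361%, 7.825% and 7.483% of the counts in shCCT2 1, 2 and 3, against 8.665% and 8.668% in shCtrl 1 and 2. No Wilson 95% interval was wider than 0.027 percentage points, and these intervals cover counting error only. The percent change of the sum relative to its own control was -15.0%, -9.7% and -13.7% in shCCT2 1, 2 and 3. On deposited totals the groups did not overlap, and the knockdown libraries differed among themselves by 0.464 percentage points, less than the 0.84 points between the highest of them and the nearer control. On TMM-scaled totals the share was 7.86%, 8.19% and 7.19% in shCCT2 1, 2 and 3, against 8.97% and 7.74% in shCtrl 1 and 2, so shCCT2 1 and 2 lay above shCtrl 2. No test is given for the sum, since the members were chosen with results of these libraries known. CPM is a share of a library, so less ribosomal protein mRNA and more of other RNA cannot be told apart, nor can less of it per cell and fewer cells that carry it.

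Within the sets, the small and the large subunit were lower by nearly the same proportion. Small subunit genes summed to 2.943%, 3.099% and 2.806% in the knockdown libraries, against 3.443% and 3.248% in the controls. Large subunit genes summed to 4.419%, 4.726% and 4.676% in the knockdown libraries, against 5.222% and 5.420% in the controls. The log2 changes of the 2 sums in shCCT2 1, 2 and 3 were -0.23, -0.15 and -0.21 for the small subunit and -0.24, -0.14 and -0.21 for the large one. The ratio of large to small subunit counts was 1.502, 1.525 and 1.67 in the knockdown libraries, against 1.52 and 1.67 in the controls, so it followed the set and not the hairpin. After TMM scaling, which adds 0.046, 0.015 and 0.107 to every log2 change in shCCT2 1, 2 and 3, the small subunit changes were -0.18, -0.14 and -0.10 and the large subunit changes -0.195, -0.13 and -0.11. The position of reads along transcripts differed as well. The last 20% of positions held 13.8%, 15.27% and 14.1% of reads in the knockdown libraries, against 16.7% and 15.25% in the controls. Each knockdown library was below its own control, but shCCT2 2 was not below shCtrl 2. The part of read position in these changes was not tested.

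**Figure D1:**
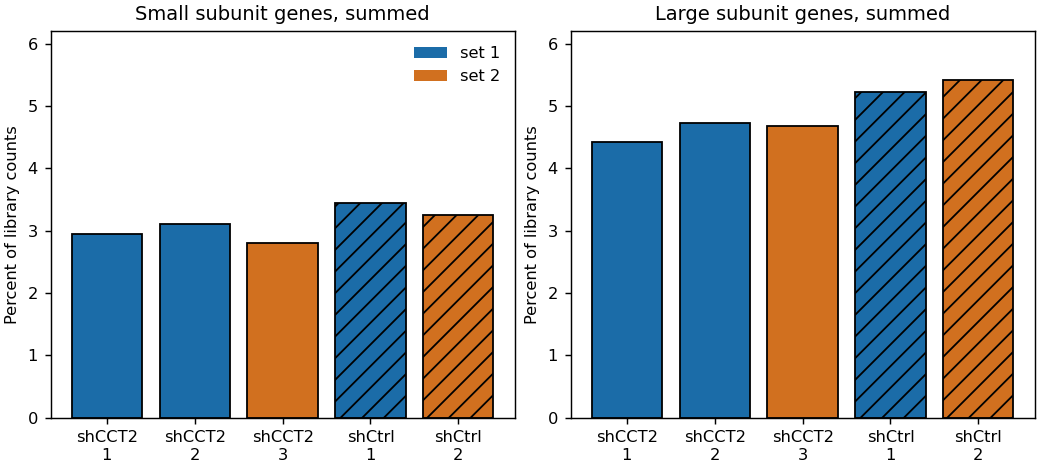
Percent of each library's counts held by the 31 small subunit genes (left) and the 46 large subunit genes (right), 1 bar per library, with shCCT2 plain and shCtrl hatched and the colours giving the set. On these deposited totals, without TMM scaling, every shCCT2 bar is lower than both shCtrl bars, 2.81% to 3.10% against 3.25% and 3.44% in the small subunit and 4.42% to 4.73% against 5.22% and 5.42% in the large one.

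Gene by gene, most members were lower by a small amount in set 1, and their changes were scattered in set 2. In CPM, 73 of 77 members were lower in shCCT2 1 (94.8%, against 55.6% of all genes tested), 73 were lower in shCCT2 2 (94.8%, against 53.3%) and 60 were lower in shCCT2 3 (77.9%, against 56.7%). The median log2 change of the members was -0.24 in shCCT2 1, -0.16 in shCCT2 2 and -0.15 in shCCT2 3. Over all genes tested it was -0.045, -0.02 and -0.13. The members' median minus that of all genes was therefore -0.19 and -0.14 in set 1 but -0.025 in set 2, where TMM scaling left 44 of 77 members lower (6732 of 13123 over all genes). Set against the 890 other tested genes at least as abundant as the lowest member, whose medians were 0.07, 0.01 and 0.12, the difference of medians was -0.31, -0.17 and -0.27. The comparison with abundant genes was added after the data were seen.

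The members' changes spread least in shCCT2 2, with an SD of 0.10 over the 77 genes, and most in shCCT2 3, with an SD of 0.33 (0.18 in shCCT2 1). Over all genes tested the SD had the same order and was wider, at 0.45, 0.29 and 0.91 in shCCT2 1, 2 and 3. Changes above 0.5 in size were seen for 19 members in shCCT2 3 (24.7%), 3 in shCCT2 1 (3.9%) and 1 in shCCT2 2 (1.3%). Over all genes tested such changes were no rarer in shCCT2 3, where the lower quartile was -0.675, against -0.419 over the members. The controls themselves differed across members with an SD of 0.52 on the log2 scale, against 1.22 over all genes tested. Across the 77 members, the mean change in set 1 and the change in set 2 had Pearson's r of 0.28 and Spearman's rho of 0.26, given as a description, since genes of a library share its depth and are not independent. Pearson's r between the log2 mean CPM and the log2 change over the same genes was -0.07, 0.24 and -0.10 in shCCT2 1, 2 and 3.

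**Figure D2:**
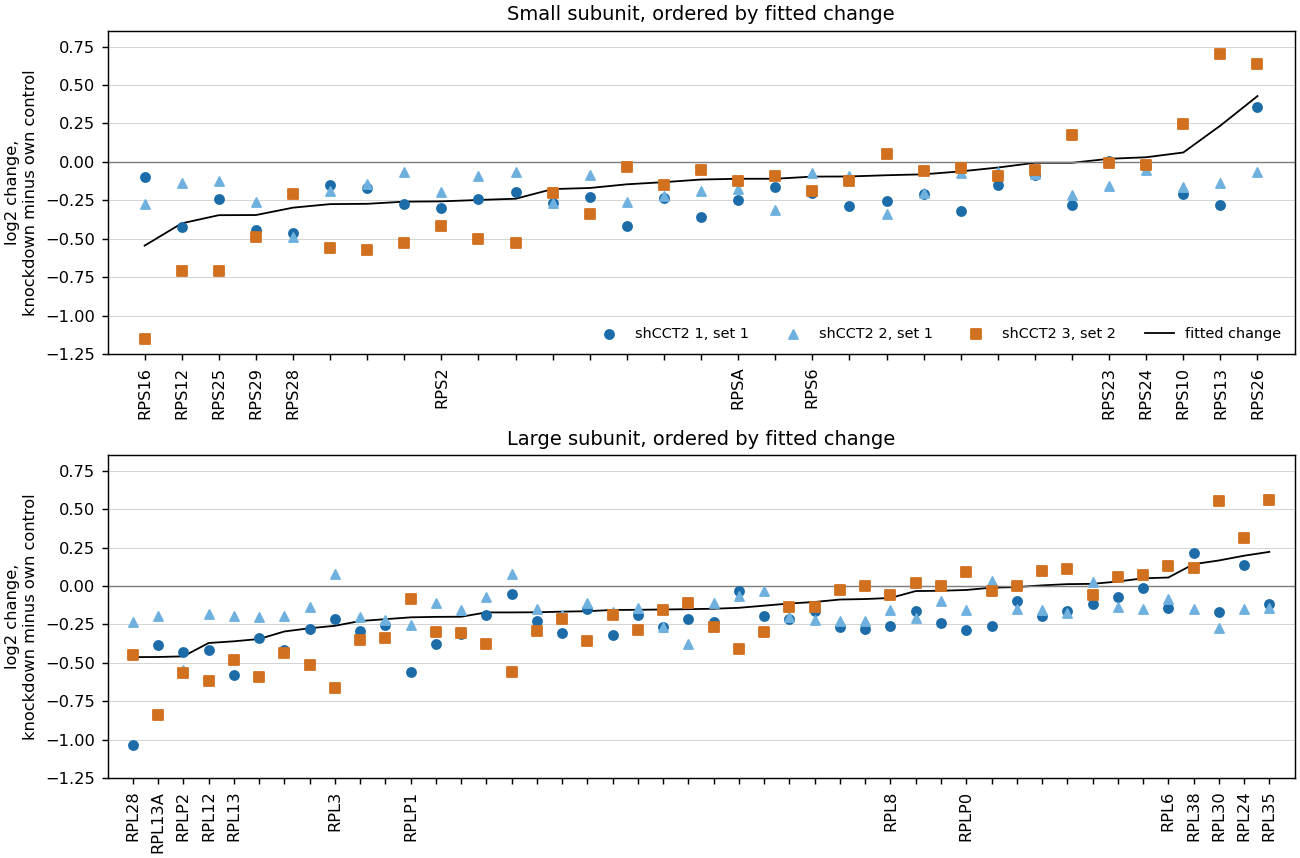
Log2 change of each ribosomal protein gene (CPM with 0.5 added) in shCCT2 1, shCCT2 2 and shCCT2 3 against the control of its set, small subunit above and large subunit below, ordered by the fitted change (line), with names under the members whose values the text gives by the naming rule. The set 1 points lie in a narrow band under 0 for most genes, while the shCCT2 3 points run from -1.15 for RPS16 to 0.71 for RPS13.

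All 3 knockdown libraries were below their own control in 55 members (25 small and 30 large subunit genes), 71.4% of members against 26.2% of all genes tested. None of the members was above its own control in all 3, against 16.2% of all genes. Both of these counts are in CPM. The condition of all 3 knockdown libraries below both controls, which compares across the sets, held in CPM for 20 members (26%, against 10.4% of all genes), and the opposite for 0 (against 6.15%). On TMM-scaled totals it held for 17 members (22.1%, against 8.31% of all genes), of which 12 were among the 20. Of the 20, 9 were small subunit genes, RPS4X, RPS9, RPS12, RPS15A, RPS28, RPS29 and RPSA among them. The 11 large subunit genes were RPL4, RPL10, RPL12, RPL13A, RPL17, RPL18, RPL22, RPL26, RPL29, RPL32 and RPLP2. After TMM scaling RPS4X, RPS9, RPL10, RPL22, RPL26, RPL29 and RPL32 no longer met the condition, while RPL28 and RPS16 did.

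No member passed the test across all genes. With edgeR's quasi-likelihood test on the 5 libraries, 0 of 77 members and 0.0% of 13123 genes had a Benjamini-Hochberg adjusted p under 0.05, and the lowest adjusted p of a member was 0.542. At an unadjusted p under 0.05 there was 1 member, RPLP2, lower, against 4.57% of all genes lower and 2.83% higher. DESeq2 likewise passed 0 members, with 0.13% of all genes, and had 2 members lower at an unadjusted p under 0.05, against 6.04%. The fitted change, after TMM scaling, was below 0 in 62 members (80.5%), 26 of 31 small and 36 of 46 large subunit genes, against 51.5% of all genes, and in 71 without TMM scaling. Its median was -0.12 in the small subunit and -0.15 in the large subunit, against -0.02 over all genes, with standard errors of 0.18 to 0.27 for single members. This depended on shCtrl 1. Without it, so that set 2 alone gave the change, 39 of 77 members were below 0 and their median was -0.01, while without shCtrl 2 or shCCT2 3 the number was 73.

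In the stalk, RPLP2 was lower in every knockdown library, and RPLP0 in set 1 alone. RPLP2, which forms the flexible arms of the stalk with RPLP1, stood at 490.6, 452.3 and 594.7 CPM in the knockdown libraries, against 661.9 and 880.4 CPM in the controls. The groups did not overlap, the log2 changes were -0.43, -0.55 and -0.57, and the fitted change was -0.46 ± 0.18 (SE; edgeR unadjusted p = 0.0441, adjusted p = 0.542). RPLP1, its partner, stood at 711.1, 876.2 and 1090.2 CPM in the knockdown libraries, against 1047.0 and 1158.2 CPM in the controls. Each knockdown library was below its own control, but shCCT2 3 was above shCtrl 1, and the fitted change was -0.20 ± 0.21. RPLP0, which anchors the stalk to the rRNA, stood at 2865.6, 3144.0 and 3853.8 CPM in the knockdown libraries, against 3497.8 and 3626.0 CPM in the controls. It was below its control in set 1 and above it in set 2, where it was the highest of all 5 libraries, and the fitted change was -0.03 ± 0.20.

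The other large subunit genes with the lowest fitted changes were RPL28, RPL13A, RPL12 and RPL13. RPL28, a protein without a counterpart in bacteria, stood at 264.9, 461.3 and 567.6 CPM in the knockdown libraries, against 543.4 and 774.1 CPM in the controls. Its low value in shCCT2 1 gave the largest change of any member there, -1.04 on the log2 scale, next to -0.24 and -0.45 in shCCT2 2 and 3. The groups overlapped in CPM, with shCCT2 3 above shCtrl 1, and the fitted change was -0.46 ± 0.27.

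RPL13A, which also acts outside the ribosome in silencing inflammatory transcripts, stood at 1508.2, 1719.0 and 1797.5 CPM in the knockdown libraries, against 1967.7 and 3216.0 CPM in the controls. The knockdown libraries were close together and below both controls, which were far apart, and the fitted change was -0.46 ± 0.21 (edgeR unadjusted p = 0.0674, adjusted p = 0.542). RPL12, which sits at the base of the stalk, stood at 1092.3, 1281.9 and 1156.7 CPM in the knockdown libraries, against 1456.2 and 1775.9 CPM in the controls. The groups did not overlap, and the fitted change was -0.37 ± 0.20, although its counts were not whole numbers and may be shared with copies of the gene. RPL13 stood at 406.5, 530.0 and 1123.3 CPM in the knockdown libraries, against 608.0 and 1571.1 CPM in the controls. The level differed more between the sets than between the hairpins, with the controls 1.37 log2 units apart and the fitted change at -0.36 ± 0.20.

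RPL3, RPL8 and RPLP0 had the highest mean CPM of the large subunit, a level not corrected for transcript length. RPL3, which reaches into the peptidyl transferase centre, stood at 2936.2, 3595.1 and 1534.1 CPM in the knockdown libraries, against 3402.0 and 2435.6 CPM in the controls. It was below its control in shCCT2 1 and shCCT2 3 and above it in shCCT2 2, and the fitted change was -0.26 ± 0.22. RPL8, whose bacterial counterpart uL2 supports peptide bond formation, stood at 1940.2, 2082.1 and 2991.7 CPM in the knockdown libraries, against 2319.7 and 3109.8 CPM in the controls. Each knockdown library was below its own control, with log2 changes of -0.26, -0.16 and -0.06, and the groups overlapped (fitted change -0.08 ± 0.19).

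At the other end of the large subunit stood RPL35, RPL24, RPL30, RPL38 and RPL6. RPL35, which lies beside the exit of the peptide tunnel, stood at 964.6, 948.5 and 1101.7 CPM in the knockdown libraries, against 1047.6 and 747.1 CPM in the controls. RPL30 stood at 979.8, 908.9 and 913.8 CPM in the knockdown libraries, against 1100.1 and 622.3 CPM in the controls. The knockdown libraries lay close to each other and between the controls, except RPL35 in shCCT2 3, which was above both. Both genes were lower in set 1 and higher in set 2, with fitted changes of 0.22 ± 0.24 for RPL35 and 0.17 ± 0.25 for RPL30.

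RPL24, a component of the bridge between the subunits, stood at 1073.3, 881.5 and 793.6 CPM in the knockdown libraries, against 977.5 and 638.5 CPM in the controls (fitted change 0.20 ± 0.21). RPL38 stood at 364.5, 283.3 and 161.7 CPM in the knockdown libraries, against 313.7 and 148.9 CPM in the controls (fitted change 0.14 ± 0.20). RPL6 stood at 1441.1, 1495.4 and 1427.7 CPM in the knockdown libraries, against 1588.7 and 1301.7 CPM in the controls, and its fitted change of 0.06 ± 0.19 turned to -0.009 without TMM scaling. The groups overlapped in all 3 genes, and RPL24 counts were partly not whole.

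In the small subunit the lowest fitted changes were those of RPS16, RPS12, RPS25, RPS29 and RPS28. RPS16, whose tail reaches the tRNA in the P site, stood at 567.5, 503.1 and 613.3 CPM in the knockdown libraries, against 608.5 and 1365.4 CPM in the controls. A single library, shCtrl 2, stood far above the other 4, so the log2 change was -1.15 in set 2 but -0.10 and -0.27 in set 1, and the fitted change was -0.55 ± 0.26 (edgeR unadjusted p = 0.0816, adjusted p = 0.542).

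RPS29, a small zinc-binding protein of the subunit's head, stood at 169.4, 191.6 and 164.7 CPM in the knockdown libraries, against 230.2 and 230.9 CPM in the controls. It was the steadiest of these genes, with controls that nearly coincided, every knockdown library below both, and log2 changes of -0.44, -0.26 and -0.49 (fitted -0.35 ± 0.18). RPS28 stood at 317.6, 311.1 and 401.7 CPM in the knockdown libraries, against 437.3 and 463.8 CPM in the controls. RPS12 stood at 444.0, 540.8 and 508.6 CPM in the knockdown libraries, against 595.3 and 833.5 CPM in the controls. In both genes all knockdown libraries were below both controls, with fitted changes of -0.30 ± 0.19 for RPS28 and -0.40 ± 0.21 for RPS12. RPS25, which viral internal ribosome entry sites depend on, stood at 471.6, 510.3 and 303.1 CPM in the knockdown libraries, against 556.8 and 496.4 CPM in the controls, and the groups overlapped (fitted change -0.35 ± 0.20).

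**Figure D3:**
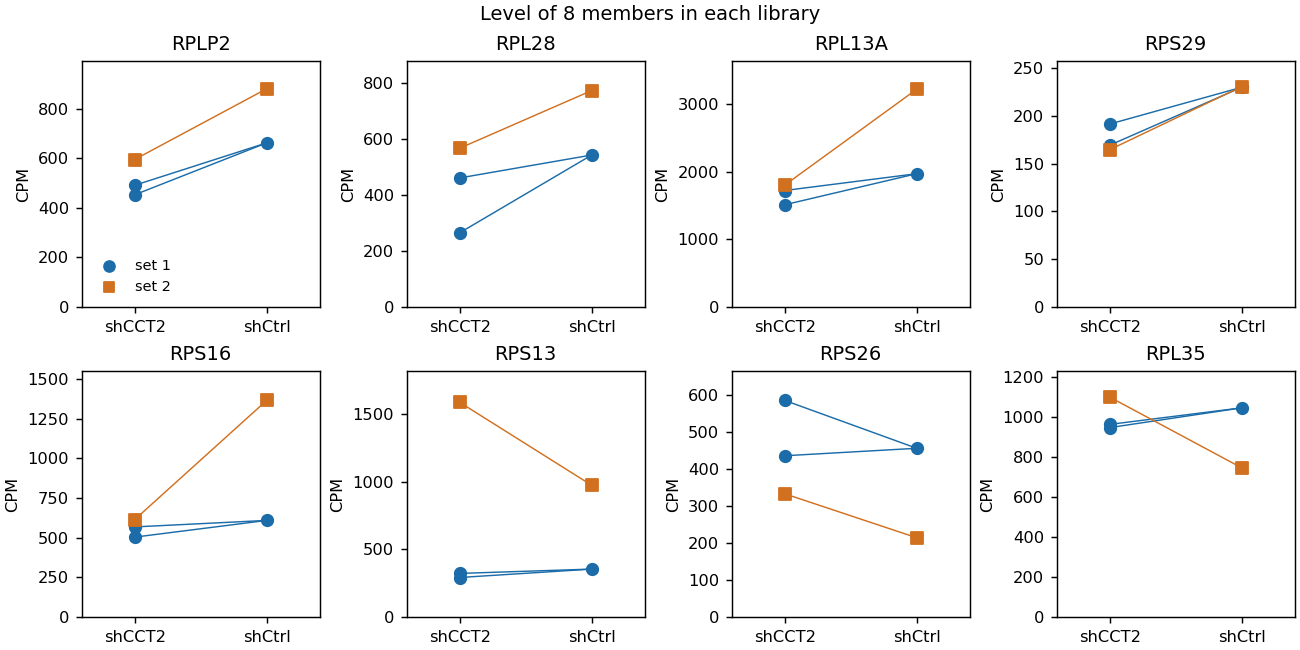
CPM of 8 ribosomal protein genes in each library, shCCT2 left and shCtrl right in each panel, with lines joining each knockdown library to the control of its own set and axes that start at 0. RPLP2, RPL13A and RPS29 are below both controls in every knockdown library, RPS16 has a single high library (shCtrl 2), and the lines of RPS13 and RPL35 slope in opposite directions in the 2 sets.

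RPS2, RPSA and RPS6 had the highest mean CPM of the small subunit, again not corrected for length. RPS2, which lines the channel where mRNA enters, stood at 4837.6, 5218.0 and 3588.1 CPM in the knockdown libraries, against 5965.1 and 4798.9 CPM in the controls. Each knockdown library was below its own control, shCCT2 1 and 2 were not below shCtrl 2, and the fitted change was -0.26 ± 0.18. RPSA, also described as the laminin receptor, stood at 1848.5, 1941.9 and 2112.8 CPM in the knockdown libraries, against 2193.4 and 2301.0 CPM in the controls. The groups did not overlap, but the changes were small (fitted -0.11 ± 0.18), and its counts were partly not whole. RPS6, the substrate of the S6 kinases downstream of mTOR, stood at 1734.7, 1902.9 and 1182.1 CPM in the knockdown libraries, against 1997.2 and 1350.6 CPM in the controls, and the groups overlapped (fitted change -0.10 ± 0.18). Phosphorylation of RPS6 was not measured.

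RPS26, RPS13, RPS10, RPS24 and RPS23 had the highest fitted changes of the small subunit. RPS26, which contacts mRNA just upstream of the start codon, stood at 585.0, 435.4 and 332.8 CPM in the knockdown libraries, against 455.6 and 213.9 CPM in the controls. It was above its control in shCCT2 1 and shCCT2 3 and below it in shCCT2 2, the groups overlapped, and the fitted change was 0.43 ± 0.24 on counts that were partly not whole. RPS13 stood at 291.7, 321.9 and 1587.9 CPM in the knockdown libraries, against 354.0 and 973.7 CPM in the controls. Both set 2 libraries stood far above the set 1 libraries, and the change was -0.28 and -0.14 in set 1 and 0.71 in set 2 (fitted 0.24 ± 0.27). RPS10, RPS24 and RPS23, none of them beyond its SE, had fitted changes of 0.06 ± 0.21, 0.03 ± 0.18 and 0.02 ± 0.19, each of which turned below 0 without TMM scaling.

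The question whether the sets gave different changes was tested with an interaction term in edgeR's quasi-likelihood fit. In this fit shCCT2 1 and shCCT2 2 are the only replicates, so its SE and p-values reflect the spread within set 1. At an unadjusted p under 0.05, 4 of 77 members (5.2%) differed, against 17.2% of all genes tested, and no member passed the Benjamini-Hochberg adjustment (0.0% of all genes). The set 2 change exceeded the set 1 change by 0.99 ± 0.29 in RPS13 (adjusted p = 0.205), 0.85 ± 0.29 in RPL30 (adjusted p = 0.237) and 0.77 ± 0.28 in RPL35 (adjusted p = 0.254). In RPS16 it was lower by the same measure, at -0.89 ± 0.31 (adjusted p = 0.245). Members lower in both set 1 knockdown libraries and higher in set 2 numbered 14 of 77 (against 10.7% of all genes), and 0 showed the opposite (against 11.5%). RPS13, RPL35, RPL30 and RPS10 had the largest set 2 changes of the 14.

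**Figure D4:**
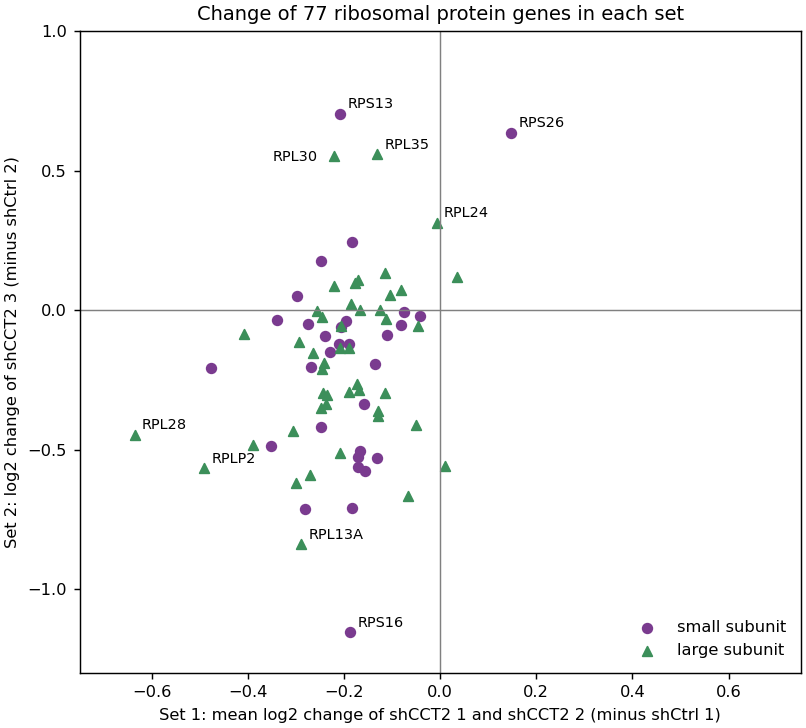
Log2 change of the 77 ribosomal protein genes in set 2 (shCCT2 3 minus shCtrl 2, vertical axis) against the mean log2 change in set 1 (shCCT2 1 and shCCT2 2 minus shCtrl 1, horizontal axis), small subunit as circles and large subunit as triangles. Nearly all points lie left of 0, and they spread from -1.15 to 0.71 along the vertical axis (r = 0.28).

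Shares of the subunit's own counts do not depend on how libraries are scaled. RPS2 made up 16.4%, 16.8% and 12.8% of small subunit counts in the knockdown libraries, against 17.3% and 14.8% in the controls. RPS13 made up 0.991%, 1.04% and 5.66% in the knockdown libraries, against 1.03% and 3.0% in the controls. RPS16 made up 1.93%, 1.62% and 2.19% in the knockdown libraries, against 1.77% and 4.20% in the controls. The set 1 shares of RPS13 and RPS16 were close together, and the wide differences were within set 2 or between the sets. In the large subunit, RPL28 made up 0.600%, 0.976% and 1.21% in the knockdown libraries, against 1.04% and 1.43% in the controls, and shCCT2 1 was the low library. RPLP0 made up 6.49%, 6.65% and 8.24% in the knockdown libraries, against 6.70% and 6.69% in the controls, so only shCCT2 3 departed from the others.

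Among ribosomal protein genes outside the symbol rule, RACK1 was lower in all knockdown libraries and FAU in set 1 alone. RACK1, a scaffold protein of the small subunit, stood at 2070.3, 2230.6 and 2233.3 CPM in the knockdown libraries, against 2440.2 and 2585.6 CPM in the controls (fitted change -0.13 ± 0.18). FAU, which encodes a fusion of a ubiquitin-like protein with a ribosomal protein, stood at 333.3, 319.1 and 216.0 CPM in the knockdown libraries, against 365.8 and 202.9 CPM in the controls. It was lower in set 1 and higher in set 2, and its fitted change of 0.007 ± 0.19 turned to -0.056 without TMM scaling. All 6 tested paralogues had fitted changes above 0 (6370 of 13123 over all genes tested), with a median of 0.225. Of these RPL7L1, a paralogue of RPL7, stood at 364.6, 305.3 and 258.0 CPM in the knockdown libraries, against 289.4 and 151.5 CPM in the controls (fitted change 0.51 ± 0.23, and 0.24 without shCtrl 2 or shCCT2 3), and each knockdown library was above its own control. None of the 6 paralogues passed (edgeR, Benjamini-Hochberg adjusted p of at least 0.542). Without shCtrl 2 or shCCT2 3, 4 of the 6 were above 0 and 2 below, with a median of 0.19.

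Other genes with TOP mRNAs, 20 in the list, had 10 fitted changes below 0 and 10 above, with a median of 0.008 that turned to -0.055 without TMM scaling. Without shCtrl 2 or shCCT2 3, so that set 1 alone gave the change, 15 of 20 were below 0 and the median was -0.14. Their medians in CPM were -0.21, -0.11 and -0.13 in shCCT2 1, 2 and 3, beside -0.24, -0.16 and -0.15 for the ribosomal protein genes. EEF2, the elongation factor that moves the ribosome along the mRNA and binds the stalk, stood at 2205.2, 2288.7 and 2143.8 CPM in the knockdown libraries, against 2797.3 and 4311.2 CPM in the controls. The groups did not overlap in CPM (10.4% of all genes tested were below both controls), but EEF2 was picked by p in these same libraries. Its fitted change was -0.55 ± 0.22 (edgeR unadjusted p = 0.0441, adjusted p = 0.542). Without shCtrl 2 or shCCT2 3 it was -0.29, and without shCtrl 1 it was -0.87. EIF3L, a subunit of initiation factor eIF3, changed by -0.21 and -0.15 in set 1 and -1.16 in set 2 (fitted -0.54 ± 0.26, and -0.15 without shCtrl 2 or shCCT2 3). Of 13 snoRNA host genes with TOP starts, SNHG32 was the 1 listed in both tables (fitted change -0.32 ± 0.22). Regulators of TOP mRNAs and of RPS6 had 13 of 15 fitted changes above 0 (9 of 15 without TMM scaling) and a median of 0.21. Over all genes tested, 6370 of 13123 were above 0. RPS6KB2, an S6 kinase, had 0.53 ± 0.21 and MTOR had 0.61 ± 0.28. The log2 changes in shCCT2 1, 2 and 3 were 0.295, 0.19 and 0.77 for RPS6KB2 and 0.31, -0.04 and 1.103 for MTOR. Without shCtrl 2 or shCCT2 3 the fitted changes were 0.28 for RPS6KB2 and 0.18 for MTOR, and without shCtrl 1 they were 0.91 and 1.25.

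Genes that build ribosomes stood on the other side of 0 from the ribosomal protein genes in 2 of the 3 knockdown libraries. In shCCT2 3, which is 1 of the 2, the median of the ribosomal protein genes (-0.15) was near that of all genes tested (-0.13). TMM scaling left 44 of 77 members lower there, against 6732 of 13123 over all genes. In the list of the small subunit processome and 40S maturation, 29 of 30 genes had fitted changes above 0, with medians of 0.37, -0.06 and 0.83 in shCCT2 1, 2 and 3 and a fitted median of 0.52. In the list of 60S maturation, 29 of 32 were above 0, with medians of 0.31, -0.05 and 0.65 and a fitted median of 0.41. In shCCT2 2, however, 22 of the 30 and 26 of the 32 were below the control, against 53.3% of all genes. Above their own control in all 3 knockdown libraries were 8 of 30 and 4 of 32 genes, against 16.2% of all genes. Fitted changes above 0 numbered 6370 of 13123 over all genes tested, and 574 over the 890 abundant genes. No gene of either list passed, and at an unadjusted p under 0.05 (edgeR) there were 3 of 30 and 4 of 32, all higher, against 2.83% of all genes. The fitted medians were 0.20 and 0.16 without shCtrl 2 or shCCT2 3, and 0.98 and 0.79 without shCtrl 1.

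Of the 40S list, NOP58 and NOP56, core proteins of the box C/D snoRNPs that guide rRNA methylation, had the lowest p. NOP58 stood at 192.9, 146.0 and 222.6 CPM in the knockdown libraries, against 120.0 and 81.7 CPM in the controls. NOP56 stood at 269.9, 191.0 and 230.9 CPM in the knockdown libraries, against 172.2 and 94.3 CPM in the controls. Neither gene's groups overlapped in CPM, but both genes were picked by p in these same libraries. Over all genes tested, 6.15% had all 3 knockdown libraries above both controls. The fitted changes were 0.96 ± 0.29 for NOP58 and 0.85 ± 0.29 for NOP56 (edgeR adjusted p = 0.542 each). In the 60S list MRTO4, which holds the place of RPLP0 on the maturing subunit, had 0.94 ± 0.36 and NIP7 had 0.72 ± 0.29. Without shCtrl 2 or shCCT2 3 the fitted changes were 0.53 for NOP58, 0.45 for NOP56, 0.38 for MRTO4 and 0.34 for NIP7.

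Dedicated chaperones and importers of ribosomal proteins had 11 of 13 fitted changes above 0 and a median of 0.39, with the importin gene IPO4 at 1.05 ± 0.40 and BCCIP, the relative of a yeast chaperone of Rpl23, at 0.44 ± 0.22. The list's medians were 0.22, -0.09 and 0.51 in shCCT2 1, 2 and 3, and the fitted median was 0.11 without shCtrl 2 or shCCT2 3 and 0.65 without shCtrl 1. RNA polymerase I and its factors had 13 of 17 above 0 (median 0.28), with the subunit gene POLR1C at 0.75 ± 0.31 and TAF1C, of the promoter selectivity factor, at 0.44 ± 0.21. Its medians were 0.06, -0.009 and 0.32 in shCCT2 1, 2 and 3, and the fitted median was 0.045 without shCtrl 2 or 0.046 without shCCT2 3, and 0.47 without shCtrl 1. MYC, the transcription factor in this list, stood at 317.0, 3082.3 and 312.2 CPM in the knockdown libraries, against 400.6 and 403.7 CPM in the controls, so shCCT2 2 alone was high (fitted change 1.04 ± 1.07). Ribosome quality control genes had 10 of 15 above 0 (median 0.14), with G3BP1 at 0.48 ± 0.24 and ASCC3, a helicase that splits collided ribosomes, at 0.46 ± 0.23. Beside these 3 lists, 6370 of 13123 were above 0 over all genes tested, and 574 over the 890 abundant genes. Without shCtrl 2 or shCCT2 3 the fitted changes were 0.38 for IPO4, 0.19 for BCCIP, 0.36 for POLR1C, 0.14 for G3BP1 and 0.15 for ASCC3. No gene of these 3 lists passed.

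The 13 genes of the 5S RNP and its p53 surveillance, a list that also holds the members RPL5 and RPL11, were split, with 8 fitted changes above 0 and 5 below and a median of 0.07. RPL5 stood at 1174.8, 1205.6 and 1027.6 CPM in the knockdown libraries, against 1411.1 and 1045.2 CPM in the controls (fitted change -0.09 ± 0.19). RPL11 stood at 822.6, 907.4 and 1017.2 CPM in the knockdown libraries, against 892.2 and 1057.4 CPM in the controls (fitted change 0.01 ± 0.18). Both genes' groups overlapped. CDKN1A, the cell cycle inhibitor p21 and a p53 target, had a fitted change of 0.62 ± 0.19, and NOP53, whose yeast counterpart brings the exosome to 60S precursors, had -0.61 ± 0.22 (edgeR adjusted p = 0.542 each). Without shCtrl 2 or shCCT2 3 the fitted changes were 0.70 for CDKN1A and -0.32 for NOP53.

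Mitochondrial ribosomal proteins, a family of equal size at 77 genes, had 61 fitted changes above 0 and 16 below, with a median of 0.21. Over all genes tested, 6370 of 13123 were above 0. Their medians were 0.08, -0.06 and 0.31 in shCCT2 1, 2 and 3, and 15 of 77 were above their own control in all 3 knockdown libraries, where 0 of 77 cytosolic members were (16.2% of all genes). MRPL40 had 0.54 ± 0.21 and MRPL15 had 0.68 ± 0.28 (0.31 and 0.21 without shCtrl 2 or shCCT2 3), and none passed (edgeR, Benjamini-Hochberg). The fitted median was 0.04 without shCtrl 2 or shCCT2 3, with 45 of 77 above 0, and 0.46 without shCtrl 1.

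**Figure D5:**
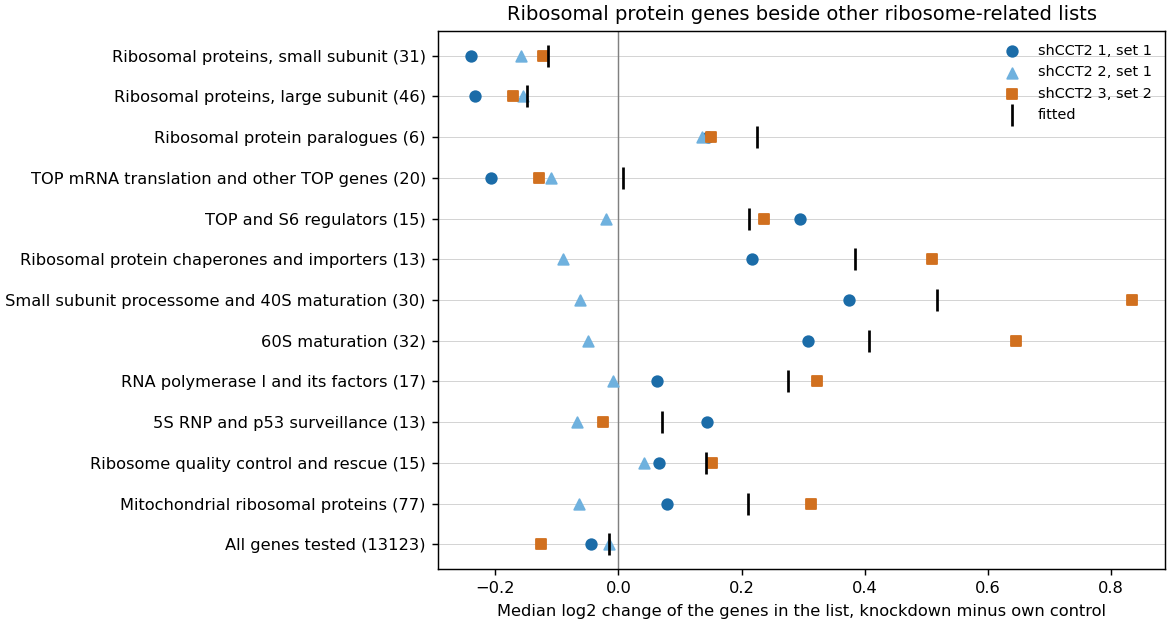
Median log2 change of each list, in shCCT2 1, 2 and 3 against the control of the same set (symbols, CPM with 0.5 added) and in the fit over all 5 libraries (bars, after TMM scaling), with the number of genes tested in parentheses. The cytosolic ribosomal protein genes lie below 0 for all 4 values, from -0.24 to -0.12, while the maturation lists lie at 0.31 to 0.83 in shCCT2 1 and 3 and near 0 in shCCT2 2. All genes tested lie at -0.045, -0.02 and -0.13 in shCCT2 1, 2 and 3.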

How the data were processed

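RNA-seq was measured in 5 libraries of SAS cells. Expression values are the authors' estimated counts, in 2 deposited tables, called read counts per the file headers. In each library 86.2% to 87.9% of values were whole, and no source used here says how the others arose. The authors also deposited a signal of reads by relative position along transcripts for each library, per the file headers. Per the submitters' processing notes, the tools were STAR 1.5.1 and HTSeq and the build listed is mm10 (mouse), with no roles given, but 98.9% of the gene identifiers matched human RefSeq genes. Strand use in counting is not stated. Members with counts not whole in all libraries are uncertain, since copies of the gene may share reads. They were RPL10, RPL12, RPL15, RPL17, RPL23A, RPL24, RPL36A, RPL41, RPS10, RPS26, RPS27A and RPSA.

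Here, tables were joined on the gene identifier and counts rounded. CPM used the deposited totals, and single-library log2 changes added 0.5 CPM. The fit was edgeR 4.0.16's quasi-likelihood test (R 4.3.3) with TMM scaling, the filter by group, terms for table and hairpin, 2 residual degrees of freedom and Benjamini-Hochberg adjustment over 13123 genes. The SE is the change over the root of its F. DESeq2 1.42.0 was an alternative. Scripts were tested on simulated data.

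The members and gene lists were chosen with earlier results of these data known. Named members were CCT2 as the target, those with a stated role, the 5 lowest and 5 highest fitted changes and the 3 highest mean CPM per subunit, those at an unadjusted p under 0.05, those of opposite sign in the sets and, per list, up to 4 genes by p. RPL5 and RPL11 were named in addition for their place in the 5S RNP list, after their values were seen, and so were MYC and the genes listed as below both controls. The count below both controls was also taken on TMM-scaled totals, an alternative chosen after the data were seen. Alternatives were other scalings, filters and pseudocounts, no table term, a replicate block, each library left out, set 1 alone, whole counts, and leaving out the most abundant member. No library pair differed by less than 20.3 in chi-square per degree of freedom, so none was a copy. Some single genes are not reported here.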

Additional observations from a re-analysis of the deposited data

Results flagged for a closer look

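The change in set 2 (shCCT2 3 minus shCtrl 2) differed from that in set 1 (shCCT2 1 and 2 minus shCtrl 1) at an unadjusted p under 0.05 of edgeR's interaction term in 4 members. The difference, set 2 minus set 1 on the log2 scale, was 0.99 ± 0.29 (SE) for RPS13 (edgeR adjusted p = 0.205). For RPL30 it was 0.85 ± 0.29 (edgeR adjusted p = 0.237), and for RPL35 it was 0.77 ± 0.28 (edgeR adjusted p = 0.254). For RPS16 it was -0.89 ± 0.31 (edgeR adjusted p = 0.245). None passed the Benjamini-Hochberg adjustment over all genes, and 17.2% of all genes met the unadjusted threshold against 5.2% of members. Set 2 has 1 knockdown and 1 control library, so its part of each difference has no replicate. The SE and p-values reflect the spread between shCCT2 1 and shCCT2 2 and not that of the set 2 change.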

How the results depend on the processing

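No alternative put a member past the adjusted threshold (edgeR and DESeq2, Benjamini-Hochberg). Without shCtrl 1 the change came from shCCT2 3 and shCtrl 2 alone, which have no replicate, so no p is given for that setting. Of all genes, 17 passed with DESeq2, CCT2 among them (-1.21), and 0 to 2 with 1 library left out, the 2 without shCCT2 2. The median fitted change was -0.16 to 0.016 in the small subunit and -0.17 to -0.033 in the large one with 1 library left out, and the values nearest or above 0 came without shCtrl 1. Without scaling the medians were -0.18 and -0.21, and without the table term the large subunit median was -0.087. On the TMM-scaled total, the sum of the small subunit changed by -0.18 in shCCT2 1 and -0.10 in shCCT2 3, and that of the large one by -0.11 in shCCT2 3. Over members with whole counts the small subunit sum in shCCT2 3 changed by -0.25. For read position, the last 10% of positions gave -1.33 percentage points in shCCT2 1, against -2.94 for the last 20%. The cause of these shifts was not tested.

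With the replicate number as a block in place of the table, the medians were -0.018 and -0.037 and 43 of 77 members were lower. Libraries of the same number share a set for number 1 alone, and their deviations correlated at 0.68 and -0.60. With 1 control library in each set, these values cannot be told apart from the set difference. They therefore do not show whether the numbers pair the samples. Under this replicate block the sign turned for RPL3 (0.31), RPS13 (-0.80), RPS2 (0.044), RPS24 (-0.011), RPS25 (0.035), RPS6 (0.28) and MRPL40 (-0.56).

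Single genes near 0 turned sign elsewhere. Without scaling these were RPL6 (-0.009), RPS10 (-0.002), RPS23 (-0.044), RPS24 (-0.034) and FAU (-0.056), without the table term RPS6 (0.021), and with at least 1 CPM in all libraries FAU (-0.012). In set 1 alone they were RPL30 (-0.19), RPL35 (-0.10), RPL6 (-0.083), RPS10 (-0.15), RPS13 (-0.18), RPS23 (-0.041), RPS24 (-0.012), FAU (-0.13) and RPL26L1 (-0.10). With 1 library left out, the fitted change ran from -0.19 to 0.69 for RPL30, -0.10 to 0.70 for RPL35, -0.084 to 0.27 for RPL6, -0.15 to 0.385 for RPS10 and -0.18 to 0.84 for RPS13. It ran from -0.042 to 0.13 for RPS23, -0.013 to 0.12 for RPS24, -0.135 to 0.23 for FAU and -0.105 to 1.74 for RPL26L1. It ran from -0.19 to 0.23 for RPLP0, -0.18 to 0.083 for RPL8, -0.37 to 0.051 for RPLP1 and -0.18 to 0.016 for RPSA. Each member had a mean of at least 197.3 CPM, and the fit had 2 residual degrees of freedom. How far depth or the number of libraries limited the calls was not tested.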
